A study of Bos taurus with 4 samples.

Results

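METTL21E, SMTNL2, NDRG2, SPSB2 and ABCF2 are 5 genes whose mRNA stood high in the Limousin channel of these arrays. They were chosen for that ratio, so the ratios below describe how the choice was made and are given without a test. The arrays measured 6376 named genes, and all 5 were among them, each through 1 probe printed as 2 spots and designed on a RefSeq transcript (NM_001014922, NM_001046320, NM_001035304, NM_001076280 and NM_001046136 in the order above). RNA came from the semitendinosus muscle, a muscle of the hind leg, of 15-month-old bulls of the beef breed Limousin (LIM) and of the dairy breed Holstein-Friesian (HF), 4 bulls of each. On each of the 4 two-colour arrays the RNA of 1 LIM bull, in the red dye Cy5, met that of 1 HF bull, in the green dye Cy3. The dyes were never exchanged, so that an effect of breed cannot be told apart from one of dye. Every direction given is that of the dye labels. In this direction MSTN, which encodes myostatin, had a log2 ratio of 0.68 ± 0.13 and FST, which encodes follistatin, of -1.002 ± 0.198 (moderated SE, n = 4). The study's text gives the opposite direction for both genes and for HSPA8, a chaperone gene treated with the relatives of METTL21E. It also reports RT-qPCR with higher FST and lower MSTN and HSPA8 in LIM than in HF (n = 4 per breed). By Western blot it reports less myostatin protein in LIM. Were the dye labels exchanged, every sign and every rank given here would turn round.

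The products of the 5 genes are known for different roles. METTL21E belongs to a family of enzymes that add methyl groups to lysines of other proteins; in the mouse it is found in skeletal muscle, and in humans only a pseudogene is left. SMTNL2 is a smoothelin-like protein with a calponin homology domain and is a substrate of the stress kinase JNK. NDRG2 belongs to a family named after its repression by MYC proteins and is phosphorylated by the kinases AKT and SGK, which act downstream of insulin. SPSB2 carries a SPRY domain that binds a target, such as the nitric oxide synthase NOS2, and a SOCS box that brings this target to a cullin 5 ubiquitin ligase. ABCF2 has the ATP-binding cassettes of a transporter but no membrane part, and its relative in yeast works in the making of ribosomes.

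Of 42990 spots for bovine transcripts, 32513 to 33527 per array were well above background in LIM, against 27102 to 28769 in HF. Of 12 skeletal muscle markers 7 were measured, and each of these exceeded the background in both breeds on every array. In limma the myoglobin gene MB (log2 ratio 1.02 ± 0.15, adjusted p = 0.0325) and TNNC2, also a fast-twitch marker, were higher in LIM. The other 5 did not pass (28.6% past the test), and the list median was 0.15. Across all named genes, 378 of 6376 (5.93%) had an adjusted p under 0.05 in limma, 177 (2.78%) higher and 201 (3.15%) lower in LIM, and 1843 (28.9%) had an unadjusted p under 0.05. Of the 15855 probes kept, 868 (5.47%) passed, 470 (2.96%) higher and 398 (2.51%) lower. Without array 1, 2 or 4 in turn 0 probes passed, and without array 3 there were 51. Of the 868 probes, 54.1% were thus higher in LIM, and 92.8% of those past the test were higher when each array was centred on its median in place of loess.

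METTL21E had the highest ratio of the 5 genes and differed most between the LIM bulls. The normalised log2 channel values were 8.57, 9.98, 10.29 and 9.18 in the LIM bulls of arrays 1 to 4, against 7.11, 7.80, 7.45 and 7.59 in the HF bulls. The LIM values covered a range of 1.72 and the HF values a range of 0.70, and the lowest LIM value lay 0.77 above the highest HF value. The log2 ratio of LIM over HF was thus 1.47, 2.18, 2.85 and 1.60 on the 4 arrays, with a mean of 2.02 ± 0.24 (moderated SE, n = 4). It was the 3rd highest of all measured genes in the direction of the dye labels, and the ranks of the other 4 genes are counted in the same way. The log2 ratios of duplicate spots on an array differed by at most 0.10. The probe was dim in HF muscle, with 44.8, 85.3, 37.5 and 72.0 intensity units after subtraction of a local background of 27.0 to 28.8 units. The processed signals of the scanner software, which carry no added offset, gave a mean log2 ratio of 2.87.

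SMTNL2 was bright in both breeds, and its values were closer together in LIM. Its channel values were 13.56, 13.15, 13.44 and 13.22 in the LIM bulls and 11.40, 11.73, 12.24 and 11.76 in the HF bulls, with ranges of 0.41 in LIM and 0.84 in HF. The log2 ratios were 2.17, 1.43, 1.21 and 1.46, and the mean was 1.56 ± 0.17 (the 6th highest). The high ratio of array 1 joined the highest LIM value with the lowest HF value.

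NDRG2 had channel values of 14.14, 14.23, 14.55 and 14.07 in the LIM bulls and 12.58, 12.71, 12.50 and 13.13 in the HF bulls. The log2 ratios were 1.56, 1.52, 2.05 and 0.94, and the mean was 1.52 ± 0.18 (the 8th highest). Array 3 held the highest LIM and the lowest HF value of this gene, and array 4 the lowest LIM and the highest HF value.

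SPSB2 was the steadiest of the 5 genes across arrays, with log2 ratios of 1.57, 1.20, 1.56 and 1.03 and a mean of 1.34 ± 0.12 (the 11th highest). Its channel values were 8.78, 8.59, 9.46 and 9.21 in the LIM bulls and 7.21, 7.39, 7.89 and 8.18 in the HF bulls. The SD was 0.40 for the LIM values and 0.45 for the HF values but 0.27 for the ratios, as arrays 3 and 4 held the higher values of both breeds. SPSB2 was dim too, and the processed signals gave a mean of 1.85.

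ABCF2 had channel values of 12.79, 12.62, 12.97 and 12.78 in the LIM bulls and 11.16, 11.61, 11.86 and 11.87 in the HF bulls. The log2 ratios were 1.63, 1.02, 1.11 and 0.91, and the mean was 1.17 ± 0.13 (the 20th highest). The LIM values lay within 0.35 of each other, and the low HF value of array 1 set that array apart from the others.

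**Figure D1:**
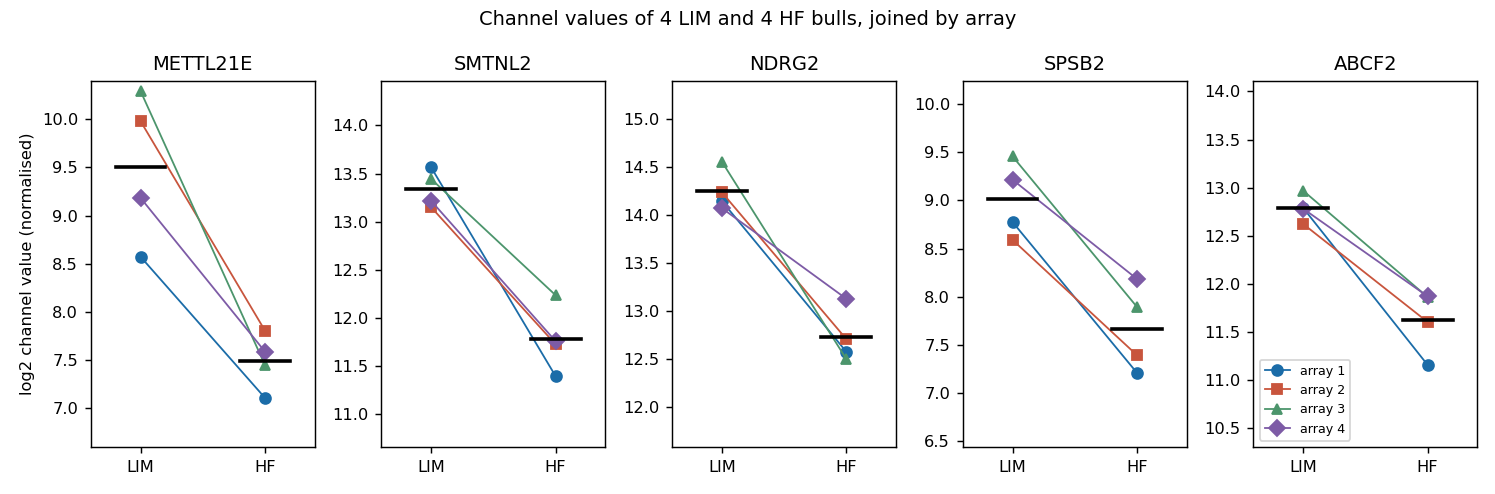
Normalised log2 channel values of the 5 genes (vertical axis, each panel with its own origin and the same span) in LIM (left) and HF (right) bulls; symbols joined by a line share an array and black bars are means of 4 bulls. In every panel the lowest LIM value is above the highest HF value, by 0.41 for SPSB2 to 0.94 for NDRG2.

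For all 5 genes the 4 LIM values thus lay above the 4 HF values, which held for 8.55% of all named genes, and the ratio was above 0 on all 4 arrays, as for 18.7% of them (17.5% were below 0 on all 4). Nothing is read from this, since the genes were chosen by the same contrast. A mean log2 ratio of at least 1 was reached by 30 genes (0.471%). The median ratio of the 5 genes was 1.57, 1.43, 1.56 and 1.03 on arrays 1 to 4, where that of the other named genes was 0.0093, 0.0060, -0.025 and 0.015. METTL21E had the highest ratio of the 5 on arrays 2, 3 and 4 and the lowest on array 1, where SMTNL2 led.

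The relatives of these genes were not chosen by their ratio and could be tested. The lists were made with earlier results of these data known, and over all of them 93 genes were measured, of which 2 were higher, 5 were lower and 86 did not pass (7.53% past the test, near the 5.93% of all named genes). Their median log2 ratio was -0.029, against 0.0027 over the other named genes measured. Adjusted p-values are from limma (Benjamini-Hochberg, over the 15855 probes), and 32 of the 93 genes had an unadjusted p under 0.05. When any 1 array was left out, 0 of the 93 genes passed in limma, and between 21 and 32 had an unadjusted p under 0.05.

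None of the 8 measured relatives of METTL21E passed. METTL21C, a muscle methyltransferase that in the mouse is found in slow fibres, had log2 ratios of -0.12, -0.997, -0.93 and -1.20 on the 4 arrays and a mean of -0.81 ± 0.19 (adjusted p = 0.0709). METTL21C was below 0 on all 4 arrays, as were 17.5% of all named genes, and METTL21E was above 0. The ratio of METTL21E was higher by 1.59 to 3.78. This difference holds the ratio by which METTL21E was chosen and was not tested. METTL21C passed with processed signals (-2.45, adjusted p = 0.0341), with an offset of 10 (-1.45, adjusted p = 0.039), with median centring (-0.94, adjusted p = 0.0292), with an intensity trend (adjusted p = 0.0392) and with unpaired channels (adjusted p = 0.0212), where all alternatives ranged from 0.0151 to 0.20. METTL21A, which methylates chaperones of the HSP70 family, had a mean of -0.29 ± 0.12 (adjusted p = 0.195) and passed with median centring (-0.53, adjusted p = 0.0445). The other 6 lay between -0.23 for CSKMT, the methyltransferase of citrate synthase, and 0.18 for METTL22, with N6AMT1 at -0.040, METTL18 at -0.020, CAMKMT at 0.058 and EEF1AKMT3 at 0.11. CAMKMT was well above background in HF on 0 of 4 arrays, N6AMT1 on 2 of 4 and METTL21A on 3 of 4. METTL21C was well above background in both breeds on all 4 arrays but was dim, with mean channel values of 6.22 in LIM and 7.03 in HF. With processed signals CAMKMT was at 1.21 and passed (adjusted p = 0.0119), and with median centring it was at -0.25. METTL22 was at 0.82 with median centring and passed (adjusted p = 0.0413).

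Of 15 measured substrates of these enzymes and partners of the segregase VCP, 0 passed. HSPA8, a constitutive chaperone of the HSP70 family, had log2 ratios of 0.32, 0.67, 0.88 and 0.39 and a mean of 0.57 ± 0.11, opposite in sign to the study's text (adjusted p = 0.0545, and between 0.0209 and 0.16 over the alternatives). The median of the list was 0.18.

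SMTN and SMTNL1, the nearest relatives of SMTNL2, were not analysed here. Among 5 measured calponins and transgelins, which share the calponin homology domain and bind actin, TAGLN2 fell and 4 did not pass. TAGLN2 had log2 ratios of -0.87, -0.97, -1.32 and -0.71, with a mean of -0.97 ± 0.11 (adjusted p = 0.0246). With median centring it was -0.34 (adjusted p = 0.149), and the adjusted p of all alternatives ranged from 0.0133 to 0.149. CNN2 was at -0.53 ± 0.13 (adjusted p = 0.076) and TAGLN3 at 0.60 ± 0.16 (adjusted p = 0.089). With median centring TAGLN3 passed (1.04, adjusted p = 0.0272), while the smooth muscle forms CNN1 (-0.16) and TAGLN (-0.21) turned above 0 with median centring. Of 10 measured genes of the JNK pathway 0 passed. MAP2K4, a kinase that activates JNK, was at 0.31 ± 0.08 (adjusted p = 0.0941) and at 0.89 with median centring, where it passed (adjusted p = 0.0169). The list median was -0.030.

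NDRG3 and NDRG4, the measured relatives of NDRG2, did not pass. NDRG3 was at 0.082 ± 0.121 and turned to -0.032 without array 1, but with median centring it was at 0.63 and passed (adjusted p = 0.0328). NDRG4 was at -0.24 ± 0.09 (adjusted p = 0.181), and it passed when arrays were centred on the probes kept (-0.47, adjusted p = 0.045). On each array the ratio of NDRG2, by which it was chosen, exceeded that of NDRG3 by 1.08 to 1.84. MYC, a transcription factor of the family after which NDRG genes are named, fell in LIM, with log2 ratios of -3.29, -3.30, -2.45 and -2.10 and a mean of -2.78 ± 0.24 (adjusted p = 0.0188). The other 4 measured genes of the MYC and MAX network did not pass. Of 4 measured genes of the AKT and SGK branch, SGK1, SGK3, RICTOR and MLST8, 0 passed, and no AKT gene was measured. RICTOR, a subunit of the mTOR complex that phosphorylates AKT and SGK, was at -0.26 ± 0.08 (adjusted p = 0.125).

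Of the 3 measured relatives of SPSB2, SPSB1 fell and the others did not pass. SPSB1, which shares with SPSB2 the targeting of NOS2, fell, with log2 ratios of -0.45, -0.85, -0.37 and -0.60 and a mean of -0.57 ± 0.10 (adjusted p = 0.0435). These values are of the brighter of its 2 kept probes, and the other probe is not given here. The ratio of SPSB2 stood above that of SPSB1 by 1.63 to 2.05 on the 4 arrays, with an SD of 0.19; this difference holds the ratio by which SPSB2 was chosen and was not tested. SPSB1 did not pass with processed signals (-0.62, adjusted p = 0.0577), without the filter on dim probes (adjusted p = 0.0547) or with median centring (-0.023, adjusted p = 0.918), and the adjusted p of all alternatives ranged from 0.0345 to 0.918. SPSB3 (-0.12 ± 0.08) and SPSB4 (0.058 ± 0.137) did not pass. NOS2 was at -0.016 ± 0.211, with -0.20, 0.78, -0.43 and -0.21 on the 4 arrays. Of 4 measured genes of the cullin ligase core, ELOC, CUL2, RBX1 and NEDD8, 0 passed, and CUL5 itself was not measured. RBX1, the RING subunit of cullin 2 ligases, was at 0.19 ± 0.07 (adjusted p = 0.168) and passed with median centring (0.80, adjusted p = 0.0241). Of 16 other SOCS-box proteins SOCS2, a feedback inhibitor of growth hormone signalling, fell (-1.30 ± 0.22, adjusted p = 0.043) and 15 did not pass. Without the filter on dim probes the adjusted p of SOCS2 was 0.0604, within a range of 0.0104 to 0.132 over all alternatives.

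Of the 2 measured relatives of ABCF2, ABCE1 rose and ABCF3 did not pass. ABCE1, which splits ribosomes after translation, had log2 ratios of 0.41, 0.91, 0.59 and 0.57 and a mean of 0.62 ± 0.10 (adjusted p = 0.0367). When any 1 array was left out ABCE1 did not pass (adjusted p = 0.0663 to 0.126 in limma). It passed in limma under each of 10 other alternatives of the processing, with means of 0.62 to 1.06. Of these 10, scaling between arrays (Aquantile) cannot change a ratio, and centring on the probes kept was added after seeing the data. For the methods' t-test only the count of probes is given. ABCF3 was at -0.026, 0.28, -0.14 and 0.45, with a mean of 0.14 ± 0.12 (adjusted p = 0.487). Of 18 measured genes of ribosome biogenesis NOP16 rose (0.57 ± 0.08, adjusted p = 0.0327), RRS1 fell (-0.38 ± 0.06, adjusted p = 0.0422) while 16 genes did not pass. The median of the list was 0.030. NOP16 did not pass with processed signals (adjusted p = 0.0538) and RRS1 with unpaired channels (adjusted p = 0.0606). NOP16 and RRS1 encode nucleolar proteins of the large ribosomal subunit pathway.

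**Figure D2:**
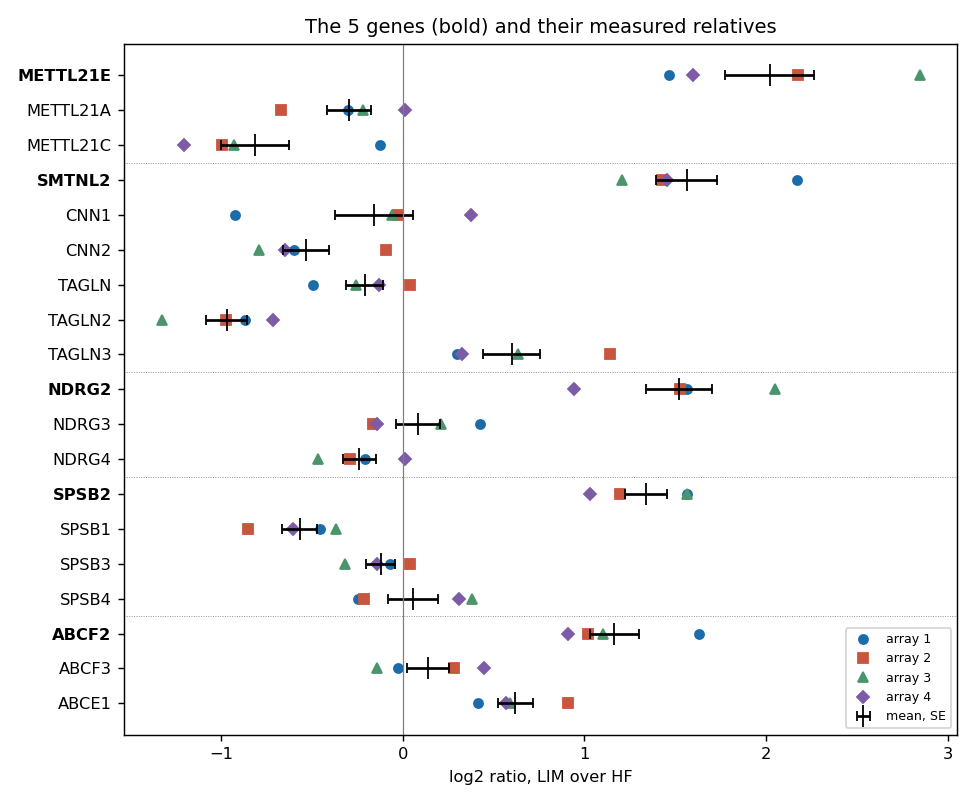
Log2 ratio of LIM over HF (horizontal axis) for the 5 genes (bold) and their measured relatives, grouped by dotted lines. Each symbol is an array, and the black bar gives mean and moderated SE (n = 4). The 5 genes were chosen for their ratio, so their place in a group is no result. Of the relatives, METTL21C, CNN2, TAGLN2 and SPSB1 lie below 0 on all 4 arrays, as do 17.5% of all named genes. TAGLN3 and ABCE1 lie above 0 on all 4, as do 18.7%.

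The genes whose ratios were closest to each of the 5 were found by the root mean square difference over the 4 arrays, among 6376 genes. This difference includes the height of the ratio by which the 5 were chosen, so genes of high rank were bound to come out closest. Those outside the set ranked from 4th (PVALB) to 33rd (CPEB3), and no shared behaviour is read from these pairings. METTL21E was closest to PVALB, the calcium buffer parvalbumin of fast fibres (0.54), then to NDRG2 (0.61) and UCP3, a mitochondrial carrier of skeletal muscle (0.68). SMTNL2 was closest to UCP3 (0.33), SPSB2 (0.43) and ABCF2 (0.44). NDRG2 was closest to PDLIM7, a PDZ and LIM domain protein of the cytoskeleton (0.27), SPSB2 (0.30) and the glycolytic enzyme PGK1 (0.38). SPSB2 was closest to ABCF2 (0.26), NDRG2 (0.30) and the homeobox gene HOXA4 (0.32), and ABCF2 to HOXA4 (0.18), the RNA-binding protein CPEB3 (0.25) and SPSB2 (0.26). METTL21E and ABCF2 were the least alike of the 10 pairs within the set (1.10).

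Among measured markers of fibre types, 33.3% of the fast and 14.3% of the slow passed the test, against 5.93% of all named genes. Of 12 fast-twitch markers 6 were measured, each of them bright in both breeds on every array. PVALB and the fast troponin TNNC2 (0.68 ± 0.12, adjusted p = 0.0453) rose and 4 did not pass. Of these 4, ATP2A1, the calcium pump of fast fibres, was at 0.82 ± 0.19 and ACTN3 at 0.48 ± 0.12. The fast myosin genes MYH2 and MYH1 were at -0.51 ± 0.31 and -0.044 ± 0.111. PVALB was at 1.896 ± 0.332 (adjusted p = 0.0445 in limma). PVALB did not pass without the filter on dim probes (adjusted p = 0.0645) or when any 1 array was left out (adjusted p = 0.0853 to 0.127). The median of the fast list was 0.71, 0.33, 0.72 and 0.42 on arrays 1 to 4, and its summed log2 level lay between 19.37 and 19.51 in LIM and between 19.01 and 19.18 in HF. Of 10 slow-twitch markers 7 were measured, MYL3, a slow myosin light chain, fell (-0.74 ± 0.12, adjusted p = 0.0422) and 6 did not pass. All 7 had a mean ratio below 0, from -1.12 for TNNC1 to -0.027 for MYOZ2, where 3218 of 6371 other named genes were above 0. The median of the slow list was -1.89, -0.48, -0.93 and -0.011, and its summed level lay between 17.50 and 18.19 in LIM and between 18.33 and 19.53 in HF. Single named genes were as far apart, without overlap of the breeds, in 8.55% of cases in each direction. The slow sum rests largely on MYH7, MYL2 and TNNC1 (HF means of 17.25, 17.13 and 16.98), none of which passed. By its median the slow list was lowest on array 1, where METTL21E had its lowest ratio and SMTNL2, SPSB2 and ABCF2 their highest (for SPSB2 1.57, against 1.56 on array 3). The part of fibre type in the ratios of the 5 genes was not tested, and fewer fibres of a type cannot be told apart from less mRNA per fibre.

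**Figure D3:**
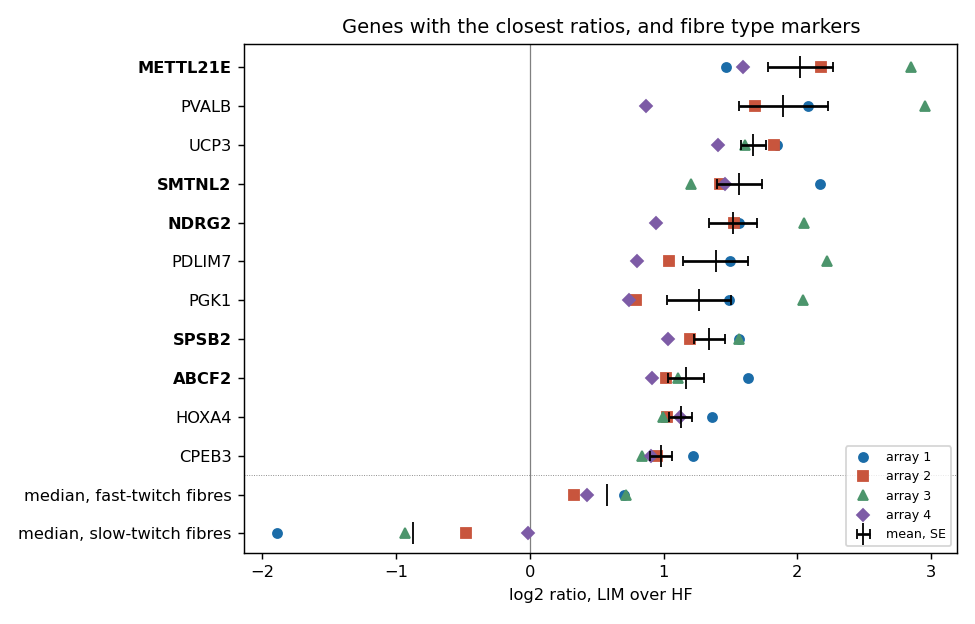
Log2 ratio of LIM over HF (horizontal axis) for the 5 genes (bold) and the genes closest to them, and the median ratio of the fast- and slow-twitch markers. Closeness includes the height of the ratio by which the 5 genes were chosen. Each symbol is an array, and the black bar gives mean and moderated SE (for the lists, the median of the mean ratios); the slow-twitch median lies between -1.89 and -0.011 and the fast-twitch median between 0.33 and 0.72.

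Among markers of other cell types 1 of 7 passed for fibroblasts (14.3%), 1 of 5 for adipocytes (20%) and 1 of 5 for smooth muscle (20%). For the other types 0 passed, where 5.93% of all named genes did. Nothing is read from these small counts. Of 7 measured fibroblast markers COL3A1 passed (2.53 ± 0.44) and 6 did not, with DCN at -0.23 and PDGFRA at -0.27. The list median was 0.66, and the summed level lay between 14.54 and 15.47 in LIM and between 13.64 and 14.70 in HF. Of 4 satellite cell and myoblast markers 0 passed (median 0.57), with summed levels of 12.60 to 13.46 in LIM and 11.97 to 12.84 in HF. Of 4 macrophage markers 0 passed, all with a mean ratio below 0 (median -0.55), where 3218 of 6371 other named genes were above 0. The summed macrophage levels were 10.20 to 10.81 in LIM and 10.56 to 11.72 in HF. The median was 0.26 for 5 adipocyte markers, -0.13 for 4 endothelial, -0.19 for 5 smooth muscle, -0.25 for 5 lymphocyte, -0.60 for 3 nerve and Schwann cell and -0.092 for 3 blood markers, of which CFD of the adipocyte list (-1.17 ± 0.20) and LMOD1 of the smooth muscle list (-0.43 ± 0.08) fell. The part of these cells in the ratios of the 5 genes was not tested.

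The genes that lie beside the 5 on the chromosome were mostly not measured. Within 3 protein-coding genes on either side, by the order of the RefSeq table, 7 of 30 neighbours were measured and 1 passed, where 5.93% of all named genes did. This was TPI1, the glycolytic triosephosphate isomerase, which lies next to SPSB2 and rose, with log2 ratios of 0.98, 0.48, 0.62 and 0.54 and a mean of 0.65 ± 0.10 (adjusted p = 0.0367). ENO2, 2 places to the other side of SPSB2, was at -0.18 ± 0.06 and USP5 and CDCA3, beyond TPI1, at 0.18 ± 0.06 and 0.31 ± 0.10. ERCC5, next to METTL21E, was at -0.27 ± 0.06 (adjusted p = 0.064), XAF1, near SMTNL2, at 0.48 ± 0.32 and SMARCD3, near ABCF2, at -0.062 ± 0.091. No neighbour of NDRG2 was measured.

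The size of the ratios differed between normalisations. Before normalisation the LIM signal of METTL21E was 11.0, 17.1, 56.4 and 11.8 times the HF signal and that of SMTNL2 was 9.77, 7.68, 10.2 and 7.59 times, where the median over all probes kept was 2.09, 2.75, 4.06 and 2.82 times. With median centring the mean log2 ratio was 2.22 for SMTNL2, 2.19 for NDRG2 and 1.82 for ABCF2, while the median of all probes kept moved to 0.25. Every alternative, leaving out each array included, kept the 5 means above 1.

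**Figure D4:**
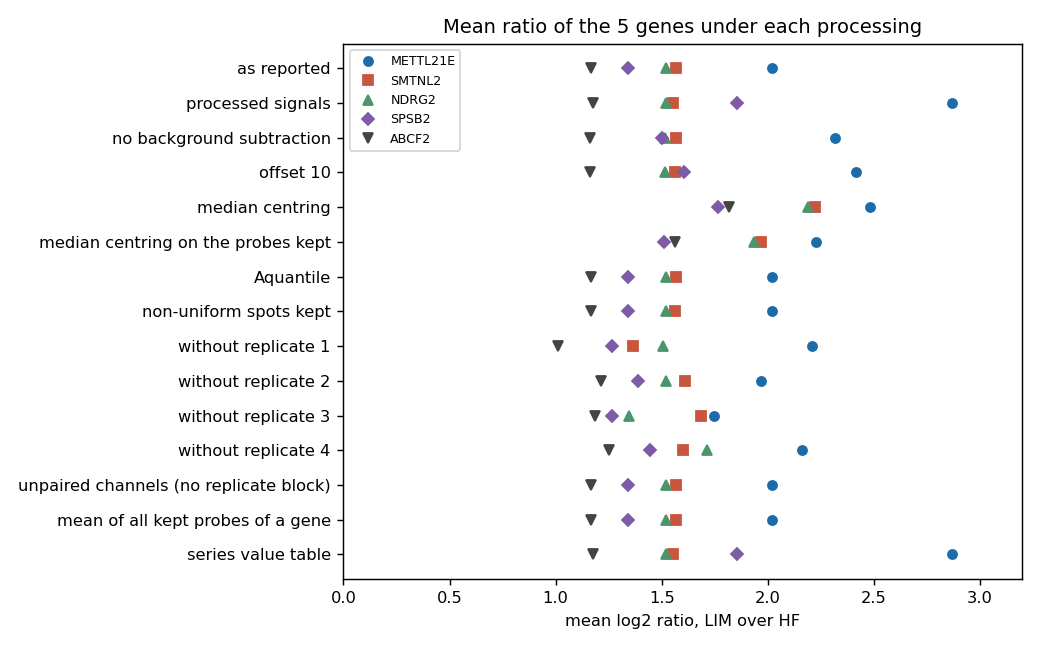
Mean log2 ratio of LIM over HF (horizontal axis) of the 5 genes under each alternative of the processing (rows; a replicate is an array). Aquantile, unpaired channels and the mean of all kept probes could not change the means, and the series value table repeats the processed signals. METTL21E has the highest mean in each row, from 1.75 without the third array to 2.87 with processed signals, and ABCF2 lies lowest at 1.01 without the first array.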

How the data were processed

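RNA of 4 LIM and 4 HF bulls was compared on 4 two-colour Agilent bovine arrays. Per the file headers the authors quantified the spots with Feature Extraction 10.7.3.1; the deposited intensity columns hold, for every spot, an unnormalized median signal, a median local background and a processed signal. The deposited log10 ratios are processed red over green and equal the series value table (largest difference 0, column medians 0), with no further centring. Median signals were background-corrected (normexp, offset 50), normalized by loess within arrays with control spots at weight 0 and averaged over the spots of a probe, without 5 to 10 non-uniform spots per array. Of 21475 probes 15855 were kept, those whose spots exceeded the background by the scanner's own call, in 1 and the same channel, on 3 or more arrays. Channel values are log2 values after loess and Aquantile. Mean log2 ratios were tested against 0 (two-sided) with limma 3.58.1 in R 4.3.3, which was tested on simulated data. The offset of 50 shrinks the ratios of dim probes. The labels call the arrays biological replicates, and their number limits the precision.

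Probes were named through their RefSeq accession (8297 of 21475 matched) with a gene table of ARS-UCD2.0; its build is not that of the array design, and coordinates are left out. A gene is represented by its brightest kept probe. Genes named are the 5 genes, their measured paralogs, up to 3 genes past the test per further list or else the one with the smallest p, the 3 closest genes for each of the 5, and markers; chromosome neighbours were added later. The 5 genes and all lists were chosen with earlier results of these data known. Probe, protein and promoter sequences were not analysed here. Alternatives were the background correction, the offset, the normalization, the filter, flagged spots and the variance model. Further ones were the methods' t-test, unpaired channels, the mean of all probes, the value table and the omission of 1 array at a time. Centring on the probes kept was added after seeing the data. The adjusted p of single genes under the alternatives is from limma. None was taken for the methods' t-test, the mean of all probes or the value table.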

Additional observations from a re-analysis of the deposited data

Results flagged for a closer look

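Among 50 sets of 4 values, the ratios of the 5 genes and of the other genes named by rule and the LIM and HF channel values of the 5 genes, 0 held a lowest or highest value past the critical value of Dixon's test, and about 2.5 would be by chance.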

How the results depend on the processing

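The mean log2 ratios of the 5 genes stayed above 0 throughout. They moved by more than the SD between arrays with processed signals or the series value table (METTL21E 2.87, SPSB2 1.85), with median centring (SMTNL2 2.22, NDRG2 2.19, SPSB2 1.77, ABCF2 1.82) and with centring on the probes kept, an alternative chosen after seeing the data (ABCF2 1.56). Leaving out 1 array gave 1.75 to 2.21 for METTL21E, 1.36 to 1.68 for SMTNL2, 1.34 to 1.71 for NDRG2, 1.26 to 1.44 for SPSB2 and 1.01 to 1.25 for ABCF2. Against 868 probes past the test (470 higher, 398 lower), processed signals gave 1334 (805 higher, 529 lower), an intensity trend with a robust prior 1308, median centring 3800 (3525 higher, 275 lower), centring on the probes kept 5484 (2594 higher, 2890 lower), and the methods' t-test 1479 at its own threshold and 1 after Benjamini-Hochberg adjustment. Leaving out 1 array gave 0 to 51 probes and 0 of the 93 related genes in each case (0 to 0), where fewer arrays were tested. Of the 93 genes 7 passed, 32 with median centring (27 higher) and 31 with centring on the probes kept (21 higher); for the other changes the cause was not tested. Without pairing (no replicate block), 1122 probes and 9 of the 93 genes passed.

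Some genes that did not pass changed sign without passing. With median centring CAMKMT was at -0.25, CSKMT at 0.22, METTL18 at 0.39, CNN1 at 0.34, TAGLN at 0.28, SPSB3 at 0.53, RICTOR at 0.24 and NOS2 at 0.38. With centring on the probes kept EEF1AKMT3 was at -0.038, CAMKMT at -0.51, METTL18 at 0.13, CNN1 at 0.081, TAGLN at 0.023, SPSB3 at 0.27 and NOS2 at 0.13, and with processed signals METTL18 was at 0.0064. Leaving out 1 array gave -0.34 to 0.099 for CNN1, -0.032 to 0.16 for NDRG3, -0.28 to 0.12 for NOS2, -0.079 to 0.057 for METTL18, -0.13 to 0.026 for N6AMT1 and -0.050 to 0.16 for SPSB4. The dim probes of METTL21E and SPSB2 in HF limit how exactly their ratios are known.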
